A study of Mus musculus with 9 samples.

Results

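The NRF2 antioxidant system was followed through 10 genes: Nfe2l2, Keap1, Hmox1, Nqo1, Gclc, Gclm, Srxn1, Txnrd1, Txn1 and Prdx1. They were picked by gene symbol from the 20717 genes of the deposited expression table, and no threshold on measured values entered the choice. Earlier results of these data were known when the choice was made. All 10 passed the filter on low values, 1 FPKM or more in 3 or more libraries, which left 11460 genes for testing. FPKM is the number of fragments scaled to transcript length and to library size.

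The study measured RNA in primary cultures of peritubular myoid cells from the testis of C57BL/6J mice, to ask how these cells respond to heat. These contractile cells wrap the seminiferous tubules. Heated dishes spent 30 min in a water bath at 42 °C and then returned to the incubator. The 3 groups were cells collected 1 h after heat, cells collected 6 h after heat, and control cells without heat. Each group had 3 libraries, and all cells were unmodified, grown at 37 °C in DMEM/F12 with fetal bovine serum. The labels number the replicates and name no separate animals or cultures. The p-values thus measure the spread among these libraries alone, and that spread may be technical. No strand setting is named in the sources used here, so reads of a gene and of an antisense partner cannot be told apart.

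NRF2, the product of Nfe2l2, is a transcription factor whose protein is held low in unstressed cells. KEAP1 binds it and hands it to the CUL3 ubiquitin ligase, and oxidants or electrophiles that modify KEAP1 cysteines let NRF2 accumulate. NRF2 then pairs with small MAF proteins at antioxidant response elements and raises enzymes of glutathione synthesis, thioredoxin reduction, quinone reduction and heme breakdown, while BACH1 occupies the same elements as a repressor. Because NRF2 is controlled largely through its protein, its own transcript is a limited readout of its activity. Hmox1 is also known as a heat shock gene in the rat.

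The sequences that bear on this system are short matches just upstream of the members' start sites. RefSeq promoter windows on GRCm38.p6, each from 250 bases before to 50 bases after a start site, were found for 8 of the 10 members, in 10 windows. Hmox1 and Gclc had no window. The antioxidant response element core TGACNNNGC, searched on both strands, was present in 5 of the 10 member windows, 1 each of Nfe2l2, Srxn1, Gclm, Prdx1 and Txnrd1, against 12.4% of all 32851 windows. Txnrd1 has 3 windows, for alternative starts, and 1 of them held the core. The 4 upstream stretches follow, in the direction of the gene, with the core in capitals. In the gene's direction it reads forward in Nfe2l2 and on the opposite strand in the others.
Nfe2l2, chr2:75704880-75704913, minus strand: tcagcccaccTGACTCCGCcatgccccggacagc
Gclm, chr3:122245408-122245446, plus strand: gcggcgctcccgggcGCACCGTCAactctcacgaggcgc
Prdx1, chr4:116685451-116685489, plus strand: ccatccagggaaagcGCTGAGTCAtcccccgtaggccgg
Txnrd1, chr10:82859099-82859137, plus strand: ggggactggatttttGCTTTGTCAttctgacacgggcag

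These cores begin 240 bases before the start site in Nfe2l2, 134 in Gclm, 133 in Prdx1 and 92 in Txnrd1. The match of Srxn1 lies 29 bases after its start site. The AP-1 site TGANTCA, which reads alike on both strands, was found in 2 of the 10 member windows, those of Srxn1 and Prdx1, and in 7.8% of all windows. Prdx1, which was lower at 1 h, carried it at 237 and 131 bases before its start site. Srxn1 carried it at 102 and 45 bases before its start site, shown here in capitals. Srxn1 was picked for print with its higher 1 h values, described next, already known.
Srxn1, chr2:152105407-152105443, plus strand: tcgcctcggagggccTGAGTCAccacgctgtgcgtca
Srxn1, chr2:152105464-152105500, plus strand: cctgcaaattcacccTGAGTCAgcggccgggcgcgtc

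In Prdx1 an AP-1 match at 131 bases before the start site overlaps the core printed above. A pair of inverted heat shock units, GAANNTTC, was found in none of the member windows and in 7.9% of all windows. With 10 member windows, finding none at such a share is not unusual. The opposite order of the units was not searched, and Hmox1 and Gclc had no window to search. A match describes letters in a window and is not a measured binding site.

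By mean FPKM over the 9 libraries, a per-length level, the order was Txn1 at 452, Prdx1 at 391, Hmox1 at 316, Txnrd1 at 121, Nfe2l2 at 65.0, Srxn1 at 55.8, Gclm at 32.5, Gclc at 16.2, Keap1 at 15.7 and Nqo1 at 11.8. Each gene's library values overlapped with those of its neighbours in this order, except for Gclm and Gclc, which did not overlap. Each library held an estimated 19000000 to 19850000 reads. Counting error was at most 8.98% for Nqo1, the member with the fewest reads (124 in its lowest library), and at most 3.41% for any other member. The coefficient of variation between replicates ran from 3.66% to 38.7% at 1 h, from 3.17% to 58.4% at 6 h and from 4.97% to 47.7% in control. The larger spreads were therefore far above counting error.

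**Figure D1:**
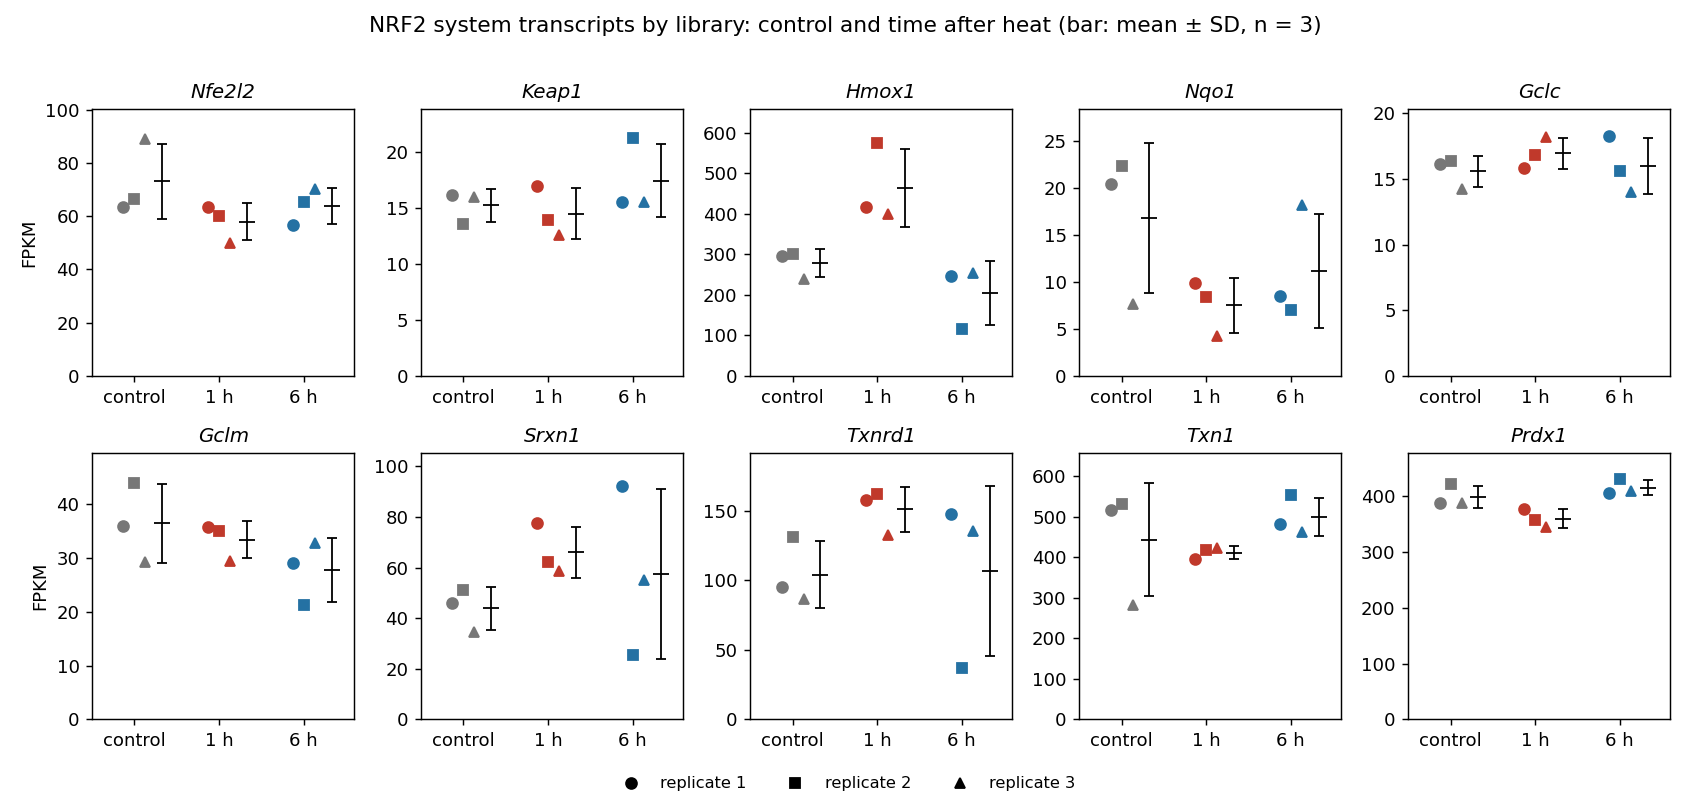
FPKM (y axes, from 0) of the 10 NRF2 system genes in control cells and at 1 h and 6 h after heat (x axes). Each marker is 1 library, its shape gives the replicate number, and the bar beside each group is the mean ± SD of 3 libraries. Hmox1, Srxn1 and Txnrd1 lie higher at 1 h than in control without overlap, and replicate 2 at 6 h lies at 36.84 FPKM for Txnrd1 and 25.3 FPKM for Srxn1.

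At 1 h after heat the members went different ways. Hmox1, Srxn1 and Txnrd1 were 1.67, 1.51 and 1.45 times their control means, with no overlap between the libraries. Nfe2l2 and Prdx1 were 0.793 and 0.903 times theirs, also without overlap, and the other 5 members overlapped. None of the 10 passed the test, which was limma on log2(FPKM + 1) with Benjamini-Hochberg adjustment over all genes at 0.05. The smallest adjusted p among them was 0.447. The same rule called 0.157% of all genes tested in this comparison, 18 of 11460.

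Against the background of all genes, 3 of 10 members were higher without overlap where 4.49% of all genes were, and 2 of 10 were lower without overlap where 21.4% of all genes were. The median log2 change at 1 h was -0.17 over all genes tested and -0.06 over the 10 members, and 8 of the 10 lay above the all-gene median. Median-of-ratios scaling, which removes that shift, turns the small negative log2 changes of Keap1, Gclm, Txn1 and Prdx1 at 1 h positive, to between 0.03 and 0.13. In bulk RNA fewer cells of a type and less RNA per cell cannot be told apart, and this holds for every value here.

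Gene positions are those of the table, on mm10. Among the regulators, Nfe2l2 (chr2:75675513-75704663) had 63.34, 60.24 and 50.06 FPKM at 1 h and 56.62, 65.19 and 70.01 FPKM at 6 h, against 63.47, 66.49 and 89.14 FPKM in control. The highest 1 h library lay only just under the lowest control library, and control replicate 3 stood at 137% of the mean of the other two controls. The log2 change at 1 h was -0.32 (SE 0.17, 95% interval -0.71 to 0.066, limma adjusted p = 0.508). Keap1 (chr9:21229730-21239332), the sensor that targets NRF2 for degradation, had 16.97, 13.92 and 12.53 FPKM at 1 h and 15.49, 21.18 and 15.53 FPKM at 6 h, against 16.14, 13.51 and 15.98 FPKM in control. Its groups overlapped in every comparison, with log2 changes of -0.07 at 1 h and 0.17 at 6 h against control.

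Hmox1 (chr8:75093618-75100593), the inducible heme oxygenase that splits heme into biliverdin, iron and carbon monoxide, had 416.04, 575.73 and 399.75 FPKM at 1 h and 247.15, 114.7 and 254.97 FPKM at 6 h, against 295.97, 300.22 and 238.52 FPKM in control. All 3 libraries at 1 h stood above all others, and replicate 2 at 6 h stood below all others. The mean was 464 ± 97.2 FPKM at 1 h against 278 ± 34.5 FPKM in control (SD, n = 3 each), a log2 change of 0.72 (SE 0.30, 95% interval 0.042 to 1.40). The interval for this gene alone excludes 0, but the limma adjusted p was 0.447. It ranged from 0.0309 to 0.778 over 20 alternative settings, and only the one with weights per library passed.

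Nqo1 (chr8:107388225-107403205), which reduces quinones with NADPH, pointed the other way. It had 9.9, 8.36 and 4.28 FPKM at 1 h and 8.46, 6.99 and 18.16 FPKM at 6 h, against 20.44, 22.31 and 7.61 FPKM in control. The overlap with the 1 h libraries comes from control replicate 3, which held 35.6% of the mean of the other two controls. Without it, Nqo1 was lower without overlap at 1 h, as were 35.2% of all genes, and at 6 h, as were 10.6% of all genes. Between 1 h and control libraries of the same number, Nqo1 was lower in 3 of 3 pairs, by log2 differences of -0.98, -1.32 and -0.71. Nfe2l2 and Prdx1 were also lower in 3 of 3 pairs, and Hmox1, Srxn1 and Txnrd1 were higher in 3 of 3. For these members, whose 1 h and control libraries do not overlap, any pairing gives the same result. It adds nothing to the lack of overlap. The pairing was inferred from these data and is not stated by the labels. The share of all genes lower in 3 of 3 pairs was not counted, and their median log2 change at 1 h was -0.17. With the replicate block the limma adjusted p of Nqo1 was 0.548. The log2 change at 1 h was -1.0 (SE 0.46, 95% interval -2.03 to 0.034, limma adjusted p = 0.479), the largest in size among the 10 members in that comparison. Control replicate 3 also stood apart in markers of Sertoli cells, with a summed level of 3100.2 FPKM over 8 markers, against 247 to 536 FPKM in the 1 h libraries, 388 to 497 FPKM in the 6 h libraries and 287 and 351 FPKM in the other controls. Most of that sum was Clu, at 2700.02 FPKM. Cldn11, Wt1 and Sox9 were also highest in control replicate 3, at 236.76, 53.76 and 27.72 FPKM, whereas Gata4, at 79.93 FPKM there, was not. Of the 8 markers 5 passed the filter. Fshr reached at most 0.09 FPKM and Amh at most 0.26 FPKM in any library. The part of that library's cell makeup in the Nqo1 values was not tested.

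The enzyme that starts glutathione synthesis, glutamate-cysteine ligase, is built from a catalytic subunit, Gclc, and a modifier subunit, Gclm. Gclc (chr9:77754535-77794489) had 15.87, 16.82 and 18.2 FPKM at 1 h and 18.25, 15.58 and 14.03 FPKM at 6 h, against 16.14, 16.38 and 14.23 FPKM in control. Gclm (chr3:122245557-122267215) had 35.79, 34.97 and 29.47 FPKM at 1 h and 29.19, 21.23 and 32.84 FPKM at 6 h, against 36.08, 43.99 and 29.3 FPKM in control. Neither subunit separated the groups. The 95% interval of the log2 change at 1 h was -0.21 to 0.44 for Gclc and -0.56 to 0.35 for Gclm, so a doubling lay outside both.

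In the thioredoxin arm, Srxn1 (chr2:152105524-152111376), the sulfiredoxin that restores over-oxidised peroxiredoxins, had 77.57, 62.01 and 58.47 FPKM at 1 h and 92.4, 25.3 and 54.99 FPKM at 6 h, against 45.98, 51.14 and 34.44 FPKM in control. The 1 h libraries all exceeded the controls, whereas the 6 h libraries held both the highest and the lowest value of the 9. The mean was 66.0 ± 10.2 FPKM at 1 h against 43.9 ± 8.55 FPKM in control (SD, n = 3 each), a log2 change of 0.59 (SE 0.39, 95% interval -0.28 to 1.46, limma adjusted p = 0.554). Txnrd1 (chr10:82833951-82897724), the cytosolic selenoenzyme that reduces thioredoxin, had 158.03, 162.39 and 132.59 FPKM at 1 h and 147.94, 36.84 and 135.79 FPKM at 6 h, against 94.9, 131.12 and 86.28 FPKM in control. Its lowest 1 h library exceeded the highest control by about 1 FPKM, and replicates 1 and 3 at 6 h were higher than every control while replicate 2 was lower than every control. The log2 change at 1 h was 0.55 (SE 0.45, 95% interval -0.47 to 1.57, limma adjusted p = 0.615). For each gene the fit shares 1 spread over all 9 libraries, so scatter at 6 h enters these 1 h intervals. With only the 6 libraries compared, the SE at 1 h was 0.18 for Srxn1, 0.19 for Txnrd1 and 0.19 for Hmox1. Their limma adjusted p-values were then 0.254, 0.272 and 0.211.

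Txn1 (chr4:57943373-57956411), the cytosolic thioredoxin, had 394.8, 417.63 and 423.23 FPKM at 1 h and 482.97, 553.07 and 462.99 FPKM at 6 h, against 516.69, 531.85 and 282.48 FPKM in control. Control replicate 3 held 53.9% of the mean of the other two controls, which were both above every 1 h library. The log2 change at 1 h was -0.05 (SE 0.24, limma adjusted p = 0.926). Prdx1 (chr4:116685599-116700000), a peroxiredoxin that removes hydrogen peroxide with electrons from thioredoxin, had 377.45, 356.82 and 344.92 FPKM at 1 h and 405.46, 430.18 and 410.06 FPKM at 6 h, against 386.88, 421.3 and 387.14 FPKM in control. All 3 libraries at 1 h lay below all 6 others, by a log2 change of -0.15 against control (SE 0.14, limma adjusted p = 0.646). That is close to the shift of -0.17 over all genes. How reads were divided between Txn1 or Prdx1 and near-identical copies elsewhere in the genome is not recorded in the table.

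At 6 h after heat no member stood apart from control. The ratio of means ran from 0.667 for Nqo1 to 1.31 for Srxn1, and all 10 members overlapped. Hmox1 averaged 206 ± 78.8 FPKM at 6 h and 278 ± 34.5 FPKM in control (SD, n = 3 each), a log2 change of -0.51 (SE 0.30, limma adjusted p = 0.877). For Gclm the averages were 27.8 ± 5.94 FPKM at 6 h and 36.5 ± 7.35 FPKM in control, a log2 change of -0.38 (SE 0.20, limma adjusted p = 0.877). Over all genes, 1.89% were higher and 5.32% lower without overlap. The test called no member and 0.0% of all genes. At an unadjusted limma p below 0.05, 145 genes were higher and 384 lower. With 11460 genes tested, counts of that size can arise with no gene changed. The smallest limma adjusted p over the whole table was 0.521, and over the members 0.877. The median log2 change was -0.07 over the members and -0.06 over all genes.

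The 6 h group was split by replicate 2. As a share of the mean of the other two libraries at 6 h, this library held 26.0% for Txnrd1, 34.3% for Srxn1, 45.7% for Hmox1, 52.5% for Nqo1 and 68.5% for Gclm. It held 137% for Keap1, 117% for Txn1 and 105% for Prdx1. For Nqo1 the library apart was replicate 3, at 18.16 FPKM, while replicates 1 and 2 had 8.46 and 6.99 FPKM. Replicate 2 was the lowest of the 9 libraries for 4 members (Hmox1, Gclm, Srxn1 and Txnrd1) and the highest for 3 (Keap1, Txn1 and Prdx1). Over all genes tested it was the lowest in 26.4% and the highest in 16.4%. Without it, 2 members, Srxn1 and Txnrd1, were higher at 6 h than in control without overlap, as were 7.39% of all genes under the same omission. The log2 change of Txnrd1 turned to 0.46 and that of Hmox1 was -0.14. Of 9 macrophage markers, 6 passed the filter. All 9 summed to 208 FPKM in this library, to 268 FPKM in 6 h replicate 1 and to 38.3 FPKM in 6 h replicate 3, against 30.6 to 83.5 FPKM in the controls, and the 1 h libraries ranged from 37.7 to 260 FPKM. Lyz2 was the largest of them, from 19.2 to 177.69 FPKM over the libraries. Cd68 ran from 6.71 to 30.69 FPKM and C1qa from 0.34 to 29.77 FPKM. Adgre1 and Ptprc stayed at or below 1.64 and 1.04 FPKM throughout, and Adgre1, like Lyz2, was highest in 6 h replicate 1. The part of macrophages in the 6 h values was not tested.

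From 1 h to 6 h after heat, Hmox1 showed the largest difference among the members. It averaged 206 ± 78.8 FPKM at 6 h and 464 ± 97.2 FPKM at 1 h (SD, n = 3 each), a log2 change of -1.24 (SE 0.30, 95% interval -1.92 to -0.56). No library overlapped, but the limma adjusted p was 0.169. Txn1 and Prdx1 were higher at 6 h than at 1 h without overlap, at 1.21 and 1.15 times the 1 h mean, with limma adjusted p-values of 0.689 and 0.581. Thus 2 of 10 members were higher and 1 lower without overlap, where 15.2% and 4.97% of all genes were. The test called 0 of 10 members and 0.279% of all genes, 32 of 11460. The comparisons share their 1 h or control libraries and are not independent of each other.

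**Figure D2:**
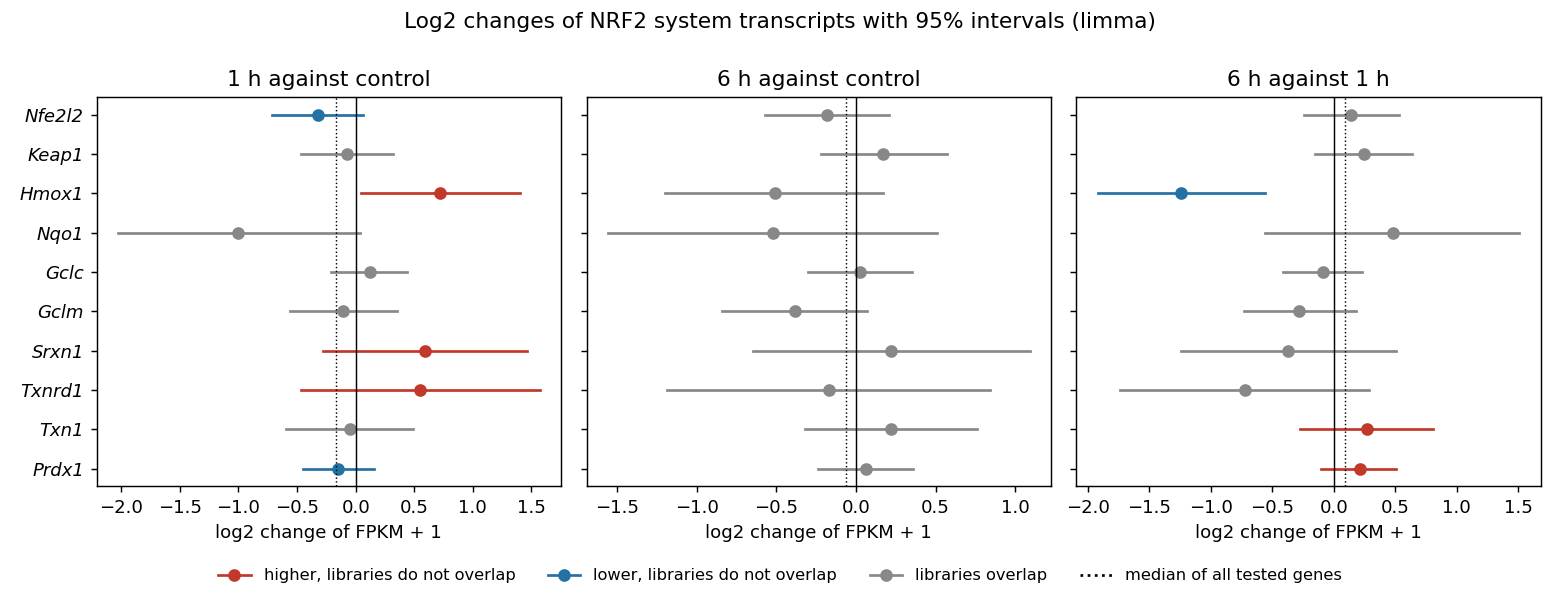
Log2 changes on the log2(FPKM + 1) scale (x axes) of the 10 members in the 3 comparisons, with 95% intervals from limma. Colours mark members whose libraries do not overlap, and the dotted line is the median of all tested genes. The Hmox1 interval lies above 0 at 1 h against control (0.042 to 1.40) and below 0 at 6 h against 1 h (-1.92 to -0.56), before adjustment over all genes.

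The wider redox system was read from 6 lists with 106 genes, of which 105 matched the table and 95 passed the filter. At 1 h, 1 of the 95 rose and 0 fell, where 0.157% of all genes were called. Without overlap 8 were higher and 16 lower, 8.42% and 16.8%, beside 4.49% and 21.4% of all genes. At 6 h against control none of the 95 and 0.0% of all genes was called by limma. Without overlap 4 of the 95 were higher and 2 lower, 4.21% and 2.11%, beside 1.89% and 5.32% of all genes. From 1 h to 6 h, 0 rose and 2 fell, where 0.279% of all genes were called. The median log2 change of the 95 was -0.13 at 1 h and -0.01 at 6 h against control, and 0.11 between the times. The lower counts without overlap at 1 h in the single lists that follow are to be read against the same 21.4% of all genes, and the higher counts against 4.49%.

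Of 14 tested regulators and partners of NRF2, none was called at 1 h, and 3 were higher and 3 lower without overlap. BACH1, the heme-sensitive repressor at antioxidant response elements, was the one called, at 6 h against 1 h. Bach1 had 6.8, 2.71 and 4.15 FPKM at 6 h, against 18.13, 19.44 and 21.86 FPKM at 1 h, while control cells had 7.46, 9.31 and 8.5 FPKM. It fell by 1.97 on the log2 scale between the times (SE 0.25, 95% interval -2.52 to -1.41, limma adjusted p = 0.0113). Every 1 h library exceeded every control, and every 6 h library was below every control. These 2 differences did not pass the test, with log2 changes of 1.14 at 1 h (limma adjusted p = 0.166) and -0.83 at 6 h (limma adjusted p = 0.877). The difference at 1 h against control passed in 4 of 20 alternatives, with limma adjusted p-values of 0.0244 with only the 6 libraries compared, 0.0012 with array weights, and 0.047 and 0.0433 without 6 h replicate 1 or 2. The call between the times ended in 5 of 20 alternatives, with adjusted p-values of 0.0533, 0.0774 and 0.0734 without 1 h replicate 1, 2 or 3, 0.0658 without 6 h replicate 3 and 0.0619 with only the 6 libraries compared.

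Maff, a small MAF partner of NRF2 and BACH1, had 164.3, 203.46 and 230.95 FPKM at 1 h and 150.37, 50.35 and 61.0 FPKM at 6 h, against 58.36, 56.86 and 39.27 FPKM in control. The 1 h libraries were all higher than control, and at 6 h replicate 1 stood near them while the other two stood near control. The log2 change at 1 h was 1.94 (SE 0.37, limma adjusted p = 0.108). Sqstm1, encoding the autophagy receptor p62 that binds KEAP1, had 457.28, 482 and 524.6 FPKM at 1 h and 520.81, 445.01 and 464.17 FPKM at 6 h, against 349.93, 328.47 and 409.3 FPKM in control. All 6 heated libraries were above all 3 controls. The log2 changes were 0.43 at 1 h and 0.40 at 6 h against control, with limma adjusted p-values of 0.421 and 0.877.

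**Figure D3:**
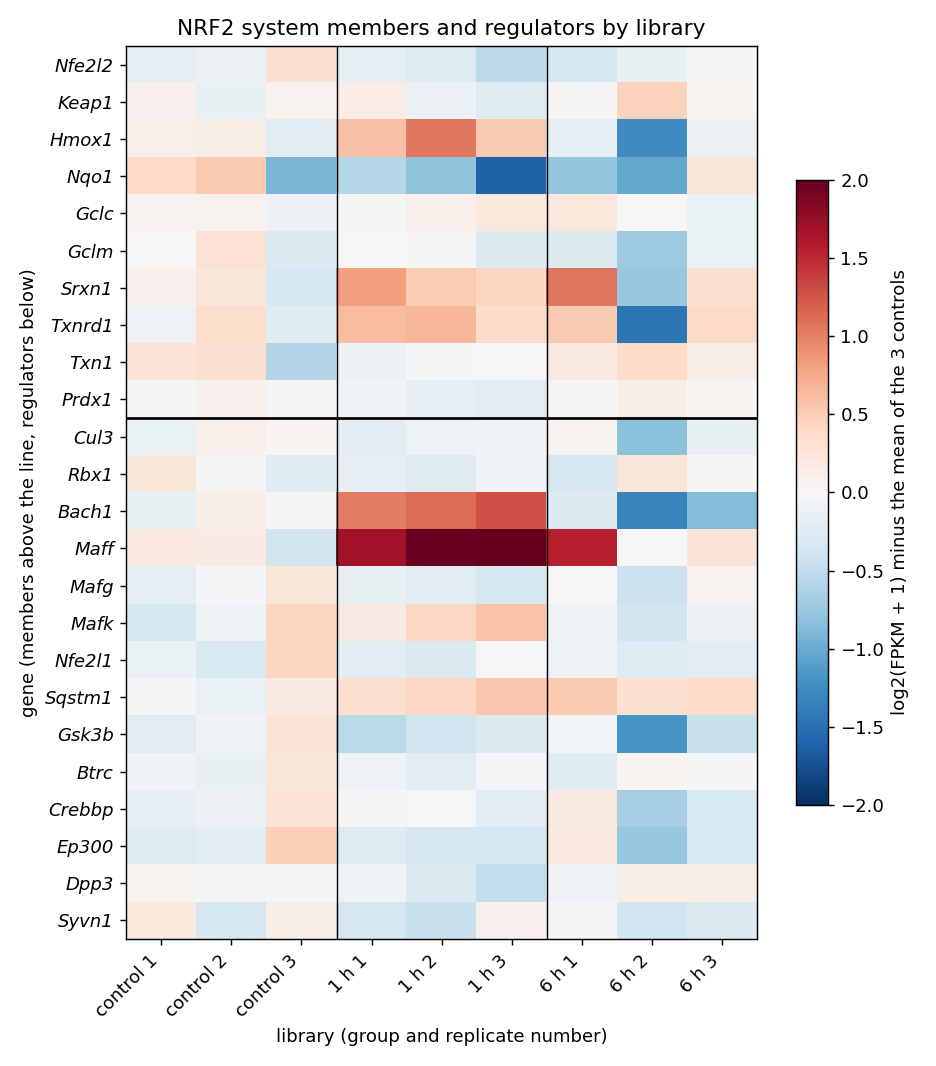
Each cell is the log2(FPKM + 1) of a gene in 1 library minus the mean of the 3 controls (colour scale, which ends at -2 and 2), for the members above the line and the tested NRF2 regulators and partners below it. Columns run from control through 1 h to 6 h. Bach1 and Maff are higher in all 3 libraries at 1 h, and 6 h replicate 2 is lower for Txnrd1, Hmox1 and Bach1.

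Among 18 tested genes of glutathione metabolism, 1 rose and none fell at 1 h. Chac1, which degrades glutathione and is known as a target of the integrated stress response, had 73.56, 107.96 and 104.8 FPKM at 1 h and 24.07, 7.21 and 10.15 FPKM at 6 h, against 15.88, 7.09 and 11.19 FPKM in control. It rose by a log2 of 3.0 at 1 h (SE 0.41, limma adjusted p = 0.0264) and fell by 2.85 on the log2 scale at 6 h against 1 h (limma adjusted p = 0.0226). Each call ended in 8 of 20 alternatives. At 1 h these included leaving out any single 1 h or control library, with adjusted p-values from 0.0529 to 0.163 and log2 changes that stayed at 2.73 to 3.26. Between the times they included leaving out any 1 h library or 6 h replicate 2 or 3, with adjusted p-values from 0.0648 to 0.146 and log2 changes of -3.03 to -2.51. Slc7a11, the cystine carrier and a known NRF2 and ATF4 target, was named after its values were seen. It had 5.09, 3.53 and 3.02 FPKM at 1 h and 2.52, 0.25 and 1.48 FPKM at 6 h, against 0.78, 1.13 and 1.02 FPKM in control, without overlap at 1 h and with a limma adjusted p of 0.286.

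Gpx4 and Gpx8, glutathione peroxidase family members and the most abundant of that list, did not pass the test. Gpx4 averaged 297 ± 19.8 FPKM at 1 h and 387 ± 34.7 FPKM in control (SD, n = 3 each), without overlap, and Gpx8 averaged 219.9 ± 20.8 FPKM at 1 h and 203 ± 40.6 FPKM in control.

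Of 19 other thioredoxin, peroxiredoxin and sulfoxide reductase genes none was called in any comparison, and 1 was higher and 4 lower at 1 h without overlap. Prdx5 averaged 368 ± 34.5 FPKM at 1 h and 354 ± 85.1 FPKM in control, and Prdx2 averaged 236 ± 3.17 FPKM at 1 h and 279 ± 62.1 FPKM in control (SD, n = 3 each). Both peroxiredoxins overlapped with control. Of 10 tested genes of heme and iron handling none was called, and 3 were lower at 1 h without overlap. The ferritin chains Ftl1 and Fth1, which store the iron that heme breakdown frees, averaged 3306 ± 411 and 1616 ± 237 FPKM at 1 h, against 4153 ± 708 and 1650.2 ± 457 FPKM in control. Both ferritin chains overlapped with control at 1 h. Ferritin is largely controlled at translation, which these data do not measure.

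Of 24 tested genes of NADPH supply and detoxification none was called, and 1 was higher and 3 lower at 1 h without overlap. Aldh1a1, a retinaldehyde dehydrogenase, averaged 2094 ± 110.2 FPKM at 1 h and 2144 ± 459 FPKM in control. Gstm2, a glutathione transferase, averaged 561 ± 97.2 FPKM at 1 h and 628 ± 476 FPKM in control (SD, n = 3 each). The control mean rests on replicate 3, at 1174.81 FPKM, and was 354 FPKM without it, with both other controls below all 3 libraries at 1 h. Of 10 superoxide and peroxide genes none was called, and Cyba, a NADPH oxidase subunit, was the one without overlap at 1 h, at 1.17 times its control mean. Sod1, the cytosolic superoxide dismutase, averaged 340.2 ± 28.3 FPKM at 1 h and 366 ± 56.7 FPKM in control.

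The heat shock genes give the scale of the response in the same libraries. Of 8 such genes, 4 rose at 1 h (Hspa1a, Hspa1b, Dnajb1 and Bag3) and the same 4 fell between the times, where 0.157% and 0.279% of all genes were called. Dnajb1, a co-chaperone of HSP70, had 439.22, 658.29 and 539.74 FPKM at 1 h and 24.18, 15.96 and 25.61 FPKM at 6 h, against 27.38, 23.13 and 19.22 FPKM in control. The largest ratio to control among the NRF2 members, 1.67 for Hmox1, was far below this. Hspa1a and Hspa1b are near-identical copies, and how their shared reads were divided is not recorded. Hspb1, the small chaperone, and Hsp90aa1 did not pass the test at 1 h, with means 7.03 and 3.60 times control and limma adjusted p-values of 0.282 and 0.264. In 6 h replicate 2 they had 201.89 and 263.64 FPKM, against 2484.43 and 1307.24 FPKM in 6 h replicate 1. That library was thus low for these chaperones as well as for Txnrd1, Srxn1 and Hmox1.

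The transcripts whose pattern over the 9 libraries was most like that of Hmox1 were Wsb1, Mdm2, Efnb2 and Klf6, with Pearson correlations of log2(FPKM + 1) from 0.948 to 0.985. Like Hmox1, all 4 were higher in every 1 h library than in every other library, and lowest in 6 h replicate 2. For Srxn1 the nearest were Has2, Btbd3, Rsbn1 and Cryab, from 0.939 to 0.967, and for Nfe2l2 they were Usp20, Ttll12, Rfwd3 and Hs1bp3, from 0.939 to 0.983. These correlations are a description over 9 libraries and 8103 genes of at least 5 FPKM on average. The points share the 3 groups, and 6 h replicate 2 and control replicate 3 weigh on them. Control replicate 3 has the highest value of Nfe2l2 and of its 4 nearest transcripts.

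The authors' deposited table gives its own comparisons, made on group values. In the authors' deposited table a total of 9 members had a q-value of at most 0.001 at 1 h against control, 8 at 6 h against control and 9 at 6 h against 1 h. Of all genes tested here, 70.3%, 55.6% and 63.9% met the same limit in the authors' deposited table. A fold of at least 2 was also met by 5.63%, 4.01% and 3.46% of all genes tested here in the authors' deposited table. Among the members it was met by 1 of those 9 at 1 h (Nqo1, log2 fold change -1.16 in the authors' deposited table), by 0 at 6 h and by 1 between the times (Hmox1, log2 fold change -1.18 in the authors' deposited table). The limma test, which uses the spread between libraries within groups, shared over all 9 libraries, called none of these.

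Of the myoid and smooth muscle markers, 5 of 5 passed the filter. Their sums were 3035 to 3198 FPKM at 1 h, 2645 to 3891 FPKM at 6 h and 3166 to 3744 FPKM in control. Acta2, smooth muscle actin, held at least 991.59 FPKM and Tagln at least 1601.96 FPKM in every library. The other markers were lower and varied more. Myh11 ran from 8.41 to 48.84 FPKM, Des from 11.02 to 63.7 FPKM and Cnn1 from 18.38 to 119.39 FPKM. All were lowest in 6 h replicate 2 and highest in control replicate 3. Leydig markers were detected in part, with 4 of 6 past the filter. Insl3, Cyp11a1, Star and Hsd3b1 were present in every library, while Cyp17a1 reached at most 0.11 FPKM and was at 0 in 6 libraries, and Lhcgr reached at most 0.27 FPKM. The 6 markers summed to 872 to 2029.6 FPKM at 1 h and 1399.9 to 2031 FPKM at 6 h, against 910.3 to 2138 FPKM in control. Control replicate 3 held 11.4% of the mean of the other controls for Insl3 and 284% for Star. For Cyp11a1 and Hsd3b1 it held 123% and 90.6%.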

How the data were processed

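RNA of 9 libraries was sequenced. The deposited table gives FPKM per gene and library, per the file headers, and the authors' log2 fold changes, p-values and q-values for 3 comparisons. HISAT2 2.0.4, Bowtie2 2.2.5, RSEM 1.2.12 and mm10 are named in the submitters' processing notes, without their roles. FPKM is a share of a library, so higher values of some transcripts lower the others. Depth was estimated from the low FPKM values, which are near whole multiples of what 1 read gives. Over transcripts of 400 to 1200 bp, in genes with 1 transcript, the share within 0.2 of a whole read was 87.4% to 91.8%. Chance gives 40% for a read number that is not fitted. The read number and a correction of transcript length were chosen on the same values, so the share is a best fit. Whole reads were not recovered for nearly all genes, so no count model was used.

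Genes at 1 FPKM or more in 3 or more libraries were tested on log2(FPKM + 1) with limma 3.58.1 (R 4.3.3), two-sided, with a variance trend and 1 mean per group (6 residual degrees of freedom), and called at a Benjamini-Hochberg adjusted p below 0.05 over 11460 genes. On this scale a fold change understates that of low values. Members, lists and tests were chosen with earlier results of these data known. The text names all members, up to 4 called genes and the 2 most abundant of each list, and the 4 nearest transcripts of Hmox1, Srxn1 and Nfe2l2. Labels share replicate numbers, and deviations of same-numbered 1 h and control libraries correlated at 0.194, 0.149 and 0.262. All were above 0.1, so the numbers were taken to pair those 2 groups. The main fit left this pairing out, and the replicate block used it. Alternatives were 2 pseudocounts, 2 filters, 2 scalings, a fit of 6 libraries, no trend, array weights, a replicate block, and omission of each library or of 2 together.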

Additional observations from a re-analysis of the deposited data

Results flagged for a closer look

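For 3 members every 1 h library lay on one side of the control mean and every 6 h library on the other. The share of all genes with this pattern was not counted, so whether 3 of 10 is unusual was not tested. Without overlap, 15.2% of all genes were higher at 6 h than at 1 h, as Prdx1 and Txn1 were. Another 4.97% were lower, as Hmox1 was. On the log2 scale the all-gene median stood at -0.17 for 1 h against control and at 0.095 for 6 h against 1 h. Hmox1 was above the control mean of 278 FPKM in all 3 libraries at 1 h and below it in all 3 at 6 h. Prdx1 was below its control mean of 398 FPKM at 1 h and above it at 6 h, and Txn1 was below 444 FPKM at 1 h and above it at 6 h. The Txn1 control mean rests on replicate 3 (282.48 FPKM): without it the mean was 524 FPKM, above 2 of the 3 libraries at 6 h, and the log2 change at 6 h against control was -0.073 in place of 0.22. The direct test of 6 h against 1 h did not pass for any of the 3, with limma adjusted p-values of 0.169 for Hmox1, 0.581 for Prdx1 and 0.689 for Txn1.

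Among the wider lists, the effects at the 2 times differed by the test itself for Bach1, with a log2 change of -1.97 at 6 h against 1 h (limma adjusted p = 0.0113), and for Chac1, with -2.85 (limma adjusted p = 0.0226). Each was lower in 3 of 3 libraries at 6 h than in every library at 1 h. Both calls ended in several alternatives, as given with their values above.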

How the results depend on the processing

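Of 600 member values (10 members, 3 comparisons, 20 alternatives), 571 kept their direction and their side of the threshold, 26 changed sign and 3 passed the threshold. Those 3 came with array weights, whose estimation stopped before it converged: Hmox1 (0.76, limma adjusted p = 0.0309) and Nqo1 (-1.24, limma adjusted p = 0.028) at 1 h, so that 1 member was called higher and 1 lower, and Hmox1 between the times (-1.11, limma adjusted p = 0.047), 1 member lower.

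Log2 changes at 1 h against control that changed sign were Keap1 (0.093 with median-of-ratios scaling, 0.087 with quantile normalization, -0.19 to 0.019 with 1 library left out), Gclm (0.063, 0.018 and -0.25 to 0.033 in the same order), Txn1 (0.13 with median-of-ratios scaling, -0.35 to 0.11 with 1 library left out) and Prdx1 (0.03 with median-of-ratios scaling). At 6 h against control these were Nfe2l2 (0.026), Gclc (-0.09), Txnrd1 (0.26), Txn1 (-0.067) and Chac1 (-0.23) with array weights, Gclc (-0.021), Txnrd1 (0.34) and Txn1 (-0.15) without control replicate 3 and 6 h replicate 2 together, and Prdx1 (-0.12) with quantile normalization. With 1 library left out the ranges were -0.069 to 0.11 for Gclc, -0.21 to 0.71 for Srxn1, -0.52 to 0.46 for Txnrd1, -0.073 to 0.38 for Txn1 and -0.31 to 0.5 for Chac1. Between the times Srxn1 turned to 0.12 without both libraries and ranged from -0.79 to 0.12 with 1 left out. None of these was called before or after, other than as named, and the cause was not tested.

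Of the wider lists, the 1 gene called higher at 1 h became 0 without a filter, 3 with only the 6 libraries compared, 7 with array weights, 0 without both libraries and 0 to 3 with 1 left out, and the 0 called lower became 7 with array weights. The 2 called lower between the times became 1 without a filter, 0 with only the 6 libraries compared, 1 without both libraries and 0 to 3 with 1 left out. Members without overlap, an alternative chosen after seeing the data, numbered 5 lower at 1 h without control replicate 3 (35.2% of all genes), 0 to 2 higher at 6 h (2 without 6 h replicate 2, 7.39% of all genes) and 0 to 3 lower at 6 h (3 without control replicate 3, 10.6% of all genes).

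Over all genes, 18 were called higher at 1 h, with 9 to 46 under the other settings but array weights and 8 to 45 with 1 library left out, and 32 were called lower between the times, with 21 to 48 and 8 to 65. The 0 called higher between the times became 7 with quantile normalization and 39 without 6 h replicate 1. Array weights called 325 higher and 1015 lower at 1 h, and 152 higher and 111 lower between the times. At 6 h against control the count of 0 became 25 higher without 6 h replicate 1. With the replicate block 0 members were called in each comparison. Same-numbered 6 h libraries did not deviate together with control (-0.178, 0.0406 and 0.0143) or 1 h libraries (-0.269, -0.104 and -0.35), so there the block pairs by number only. Standard errors of the members' log2 changes ran from 0.14 to 0.46 with 3 libraries a group, so small changes were not detectable, while counting error was at most 8.98%.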
